A study of Homo sapiens with 8 samples.

Results

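The proteasome is the large barrel-shaped protease that degrades ubiquitin-tagged proteins in the nucleus and cytoplasm. Its genes were taken by symbol, as the protein-coding genes of GENCODE release 44 (mapped to GRCh37, hg19) named PSM followed by a letter from A to G and a number, and 50 of 19794 protein-coding genes met this rule. Of these, 48 encode proteasome subunits, activators, an inhibitor or assembly chaperones, and the other 2, PSMC3IP and PSME3IP1, share only the symbol and encode proteins named as interaction partners. RNA polymerase II (RNAPII) chromatin immunoprecipitation sequencing (ChIP-seq) had been performed with an antibody to the RNAPII C-terminal domain in MDA-MB-453, a single human breast cancer cell line used as a model of the luminal androgen receptor subtype. The cells were treated for 4 h with vehicle (Veh) or with 600 nM of the CDK9 inhibitor CDDD11-8, labelled D11-8, with 2 biological replicates per treatment from independent passages. CDK9 is the kinase that releases RNAPII from promoter-proximal pausing into elongation, and the comparison of these 4 ChIP libraries addresses where RNAPII was found on genes when that kinase was inhibited.

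In the barrel, 2 outer alpha rings (PSMA genes) guard entry to 2 inner beta rings (PSMB genes), which carry the proteolytic sites of PSMB5, PSMB6 and PSMB7. Caps made of ATPases (PSMC genes) and non-ATPase subunits (PSMD genes) recognise, unfold and feed substrates into the core. Other caps (PSME genes) open the core without ATP, PSMF1 inhibits it, and dedicated chaperones (PSMD5, PSMD9, PSMD10 and the PSMG genes) build it. Most of these genes are housekeeping genes, and several are controlled together by the CNC-bZIP factor NRF1 (gene NFE2L1), which binds an antioxidant response element. The inducible subunits PSMB8, PSMB9 and PSMB10 replace the proteolytic subunits in the immunoproteasome, PSMB11 is a thymus subunit and PSMA8 a testis subunit.

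The deposited values were peaks called in each library, with 57493 and 78306 peaks in the Veh libraries and 21842 and 25897 in the D11-8 libraries. Per the labels each library had at least 60000000 paired-end reads, but the reads mapped in each were not in the files used here, and the lower number of peaks with D11-8 stands beside every coverage value given here. All 8 luminal epithelial marker genes had a promoter peak in all 4 libraries. Of the 7 markers of blood, stromal, basal epithelial and liver cells found in the annotation, 6 had a promoter peak in no library. The other, COL1A1, had one in 1 library. The endothelial marker PECAM1 was not found in the annotation, so endothelial cells were not checked.

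To show the sequence at some proteasome gene promoters, 180 bases were read from GRCh37 for 7 genes, 5′ to 3′ on the gene's strand. Each stretch ends at the base before the transcription start site (TSS). The stretches lie at chr17:36908814-36908993 (PSMB3, plus strand), chr17:38136880-38137059 (PSMD3, plus), chr14:58711381-58711560 (PSMA3, plus), chr1:109969071-109969250 (PSMA5, minus), chr17:4699259-4699438 (PSMB6, plus), chr2:231921379-231921558 (PSMD1, plus) and chr14:23511241-23511420 (PSMB11, plus), and none overlaps an exon of a protein-coding transcript. PSMB3 and PSMD3 hold the letters of the CNC-bZIP element, and PSMA3, PSMA5, PSMB3 and PSMB11 each a pair of CCAAT boxes. PSMB6 and PSMD1 had among the largest widening of the promoter peak, and PSMB11 had no RNAPII peak. PSMB6 also holds the letters of the CNC-bZIP element, starting 1 base after its TSS, outside the printed stretch. Capitals mark TGACNNNGC, the CNC-bZIP element, and CCAAT, each on either strand.
PSMB3: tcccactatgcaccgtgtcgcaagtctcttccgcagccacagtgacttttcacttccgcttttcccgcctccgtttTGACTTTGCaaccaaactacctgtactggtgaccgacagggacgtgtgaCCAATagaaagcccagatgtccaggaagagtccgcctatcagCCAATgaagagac
PSMD3: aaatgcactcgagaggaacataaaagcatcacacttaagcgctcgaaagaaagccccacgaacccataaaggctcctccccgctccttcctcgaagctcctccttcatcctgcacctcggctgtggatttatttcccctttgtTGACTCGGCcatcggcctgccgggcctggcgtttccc
PSMA3: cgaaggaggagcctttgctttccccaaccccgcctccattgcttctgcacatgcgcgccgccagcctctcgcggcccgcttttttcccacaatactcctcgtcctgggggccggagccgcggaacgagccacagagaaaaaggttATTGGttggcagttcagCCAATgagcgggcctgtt
PSMA5: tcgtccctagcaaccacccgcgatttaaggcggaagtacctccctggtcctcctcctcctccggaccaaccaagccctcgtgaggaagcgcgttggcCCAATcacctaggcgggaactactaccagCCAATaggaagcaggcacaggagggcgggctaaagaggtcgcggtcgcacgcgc
PSMB6: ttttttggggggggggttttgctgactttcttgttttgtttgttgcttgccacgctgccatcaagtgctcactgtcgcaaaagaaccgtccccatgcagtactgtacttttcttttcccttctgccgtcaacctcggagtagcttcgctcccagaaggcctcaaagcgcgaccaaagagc
PSMD1: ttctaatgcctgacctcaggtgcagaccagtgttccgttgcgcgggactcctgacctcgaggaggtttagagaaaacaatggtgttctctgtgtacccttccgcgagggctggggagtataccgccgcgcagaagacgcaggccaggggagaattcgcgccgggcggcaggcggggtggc
PSMB11: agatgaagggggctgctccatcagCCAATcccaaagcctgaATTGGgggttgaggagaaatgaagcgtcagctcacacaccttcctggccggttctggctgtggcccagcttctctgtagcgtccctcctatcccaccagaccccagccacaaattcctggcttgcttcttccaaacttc
Over the window from 250 bases before to 50 bases after the TSS, TGACNNNGC was found on either strand in 14 of the 50 proteasome genes (28.0%), against 13.9% of all 19794 protein-coding promoters. PSMA7 held 3 copies, which start 119, 75 and 55 bases before its TSS, and PSMB3 held one that starts 104 bases before. The ETS motif CCGGAAG was found in 19 of 50 (38.0%) against 12.9% of all promoters, and against 22.3% of the other genes that held a promoter peak in each of the 4 libraries. CCAAT was found in 22 of 50 against 35.3% of all, the GC box GGGCGG in 72.0% against 57.9%, and TATAAA in 6.0% against 10.1%. Among genes with a promoter peak in each of the 4 libraries, 73.9% of the proteasome genes and 74.4% of the others held the GC box. The shares were thus close there. For TATAAA the direction turned, with 6.52% against 4.67%, and for CCAAT the shares were 43.5% against 37.6%. The median GC content of the window was 61.7% in the proteasome genes and 66.0% in the other genes whose promoter held a peak throughout. These shares describe letters only.

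RNAPII was found at the promoters of nearly all proteasome genes in both treatments. A promoter peak, a peak overlapping the 300 bp on either side of the TSS, was present in all 4 libraries at 46 of the 50 genes (92.0%), against 9690 of the other 19744 protein-coding genes (49.1%). All 14 standard core subunits, all 11 PSMD subunits of the cap, all 5 activators and inhibitor and all 7 chaperones were among the 46. The remaining 4 genes, PSMA8, PSMB8, PSMB11 and PSMC2, had a promoter peak in no library.

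The testis subunit PSMA8 and the thymus subunit PSMB11 had no covered base in the gene body or in the 3 kb after the transcript end site (TES) in any library. The immunoproteasome gene PSMB8 (chr6:32808494-32812456) also had 0 covered gene body bases in all 4 libraries, and the same held for its Ensembl canonical isoform, which starts 632 bp downstream. PSMC2, an ATPase of the cap, was different. The annotated start used here lies 19073 bp upstream of its canonical start, and at the canonical start (chr7:102988090-103009842) a promoter peak was present in all 4 libraries. That PSMC2 peak was 1051 and 1540 bp wide in the Veh libraries and 7174 and 6772 bp wide in the D11-8 libraries, so the groups did not overlap. Canonical PSMC2 had 1.71% and 1.33% of its gene body covered with Veh against 9.05% and 8.51% with D11-8. Its 3 kb after the TES were covered for 18.6% and 10.2% with Veh and 0% in both D11-8 libraries.

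The other immunoproteasome genes differed from PSMB8. PSMB10, the inducible counterpart of PSMB7, lies in a dense cluster of genes and had its whole gene body covered in all 4 libraries. PSMB9, the counterpart of PSMB6, shares a divergent promoter with the peptide transporter gene TAP1, 475 bp away. Its peak ended 0 and 248 bp downstream of the PSMB9 TSS in the Veh libraries and 623 and 278 bp in the D11-8 libraries, the shortest downstream reach of the 46 genes in each library. Only D11-8 replicate 1 had covered PSMB9 gene body bases, 6.04%, and no library had any after the TES.

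Gene body coverage, the percent of bases from 300 bp after the TSS to the TES that lie inside a peak, was lower with D11-8 at most of these genes and higher at a few. It was lower in both D11-8 libraries than in both Veh libraries at 26 of the 46 genes (56.5%), against a background of 36.8% of the 9636 genes tested. It was higher in both at 6 of 46 (13.0%), against 25.7%, and the groups overlapped at the other 14. The median over the 46 genes was 68.9% and 36.0% in the Veh libraries and 19.6% and 18.8% in the D11-8 libraries, against 16.8%, 12.3%, 9.50% and 7.77% for the 9590 other genes. With 2 libraries per group the exact two-sided permutation test of a single gene cannot go below p = 0.33, so these counts carry no test. When each library was cut to the same number of its strongest peaks, coverage was lower at 12 and higher at 12 of 42 proteasome genes, against 22.0% and 41.7% of all genes, so the direction of these counts depended on how many peaks each library kept. Without Veh replicate 2, 10 of 46 genes were higher, against 32.6% of all genes.

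**Figure D1:**
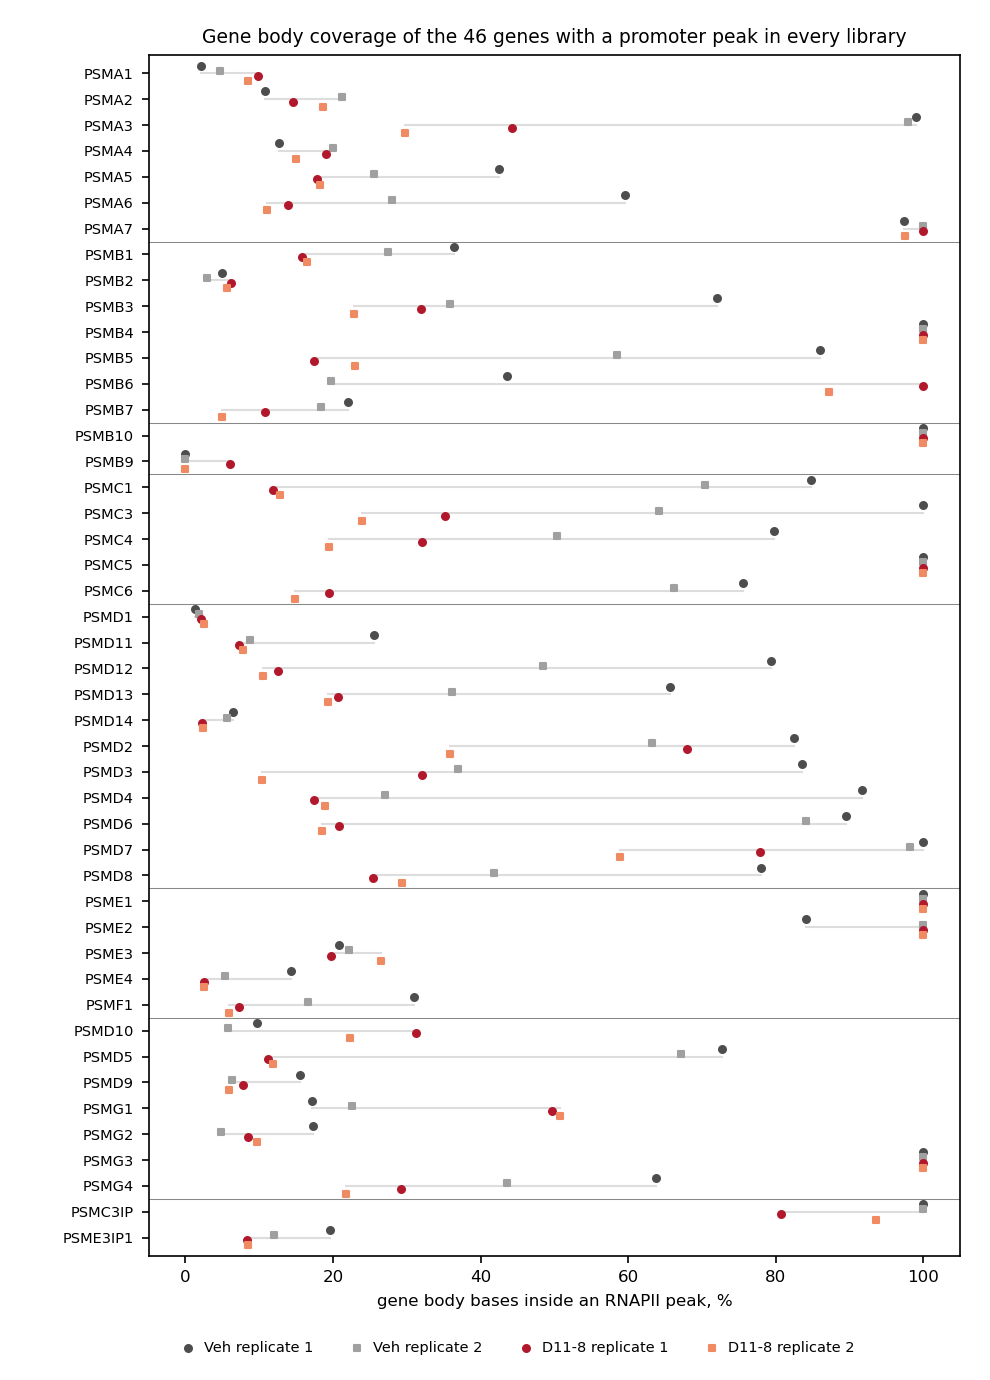
Percent of gene body bases inside an RNAPII peak (x axis) for each of the 46 genes whose promoter held a peak throughout (y axis, grouped by role from the alpha ring at the top to the symbol matches at the bottom), 1 point per library. PSMD6, PSMC1 and PSMD5 have the widest gaps with both D11-8 points on the left, PSMB6 and PSMG1 have both D11-8 points on the right, and the short genes PSMB4, PSMB10, PSMC5, PSME1 and PSMG3 sit at 100% throughout.

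Most genes of the cap had lower coverage. Of its 11 PSMD subunits, 9 were lower, PSMD1 was higher and PSMD2 overlapped, and of its 5 ATPases with a promoter peak, 4 were lower. Over all 9636 genes tested the share lower was 36.8%. It was 54.3% among other genes with at least 25% of the body covered in both Veh libraries. PSMD6, a non-ATPase subunit of the cap (chr3:63996231-64009148), had the largest difference, with 89.6% and 84.1% of its body covered with Veh and 20.7% and 18.5% with D11-8. The ATPase PSMC1 followed, with 84.8% and 70.4% against 11.8% and 12.9%. At both genes the gap between the groups was several times the difference between replicates. The ATPase PSMC6 had 75.6% and 66.2% against 19.5% and 14.8%. PSMC3 had 100% and 64.1% against 35.2% and 24.0%, and PSMC4 79.7% and 50.3% against 32.0% and 19.5%. At PSMC3 and PSMC4 the Veh libraries lay farther from each other than the lower of them lay from the higher D11-8 library. PSMC5, which overlaps the start of FTSJ3 in a long shared peak, was covered over its whole body in all 4 libraries.

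Among the core subunits, 3 of 7 alpha ring genes and 4 of 7 beta ring genes had lower coverage, against 36.8% of all genes. PSMA3 (chr14:58711561-58738722), an alpha subunit whose promoter is printed above, had 99.0% and 97.9% with Veh and 44.3% and 29.7% with D11-8. PSMB5 (chr14:23495067-23504099), the chymotrypsin-like proteolytic subunit and the target of bortezomib, had 85.9% and 58.5% against 17.4% and 22.9%. PSMB7, the trypsin-like subunit, had 22.1% and 18.4% against 10.8% and 4.94%. PSMB6, the caspase-like subunit (chr17:4699439-4701797), went the other way, with 43.6% and 19.7% against 100% and 87.2%. PSMB6 is only 2.36 kb long, and its promoter peak reached 2431 bp after the TSS in D11-8 replicate 1, past the TES. In D11-8 replicate 2 it reached 1797 bp, and a separate peak lay in the gene body. PSMA7, an alpha subunit with a divergent promoter shared with SS18L1, had between 97.4% and 100% in all 4 libraries.

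The 7 chaperones were split. PSMD5 (chr9:123578331-123605200), a chaperone of the cap's base, had 72.8% and 67.2% with Veh against 11.2% and 11.8% with D11-8, and PSMG4 had 63.8% and 43.5% against 29.3% and 21.7%. PSMG1, a chaperone of the alpha ring, had 17.2% and 22.5% against 49.7% and 50.7%, and PSMD10, also known as the oncoprotein gankyrin, had 9.76% and 5.78% against 31.2% and 22.4%. PSMD9, PSMG2 and PSMG3 overlapped between the groups. The remaining genes with higher coverage, PSMA1, PSMB2 and PSMD1, had under 10% covered in every library. At PSMA1 the values were 2.07% and 4.73% against 9.89% and 8.42%, and at PSMB2 4.97% and 2.93% against 6.18% and 5.69%. When the gene body was taken from 2 kb after the TSS, 28 of 46 genes were lower and 2 were higher, against 41.1% and 9.18% of all genes, and the difference at PSMD1 then changed sign, to -0.13 percentage points.

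Because short genes can be covered by their promoter peak alone, the proteasome genes were set beside other genes of the same length. In genes of 20 to 40 kb, the median gene body coverage of the 10 proteasome genes was 51.0% and 26.8% with Veh and 11.9% and 10.8% with D11-8, against 13.2%, 9.52%, 8.50% and 7.31% for 2084 other genes. Of these 10 genes 8 were lower, against 43.9% of the others. In genes of 10 to 20 kb, 8 of 12 were lower against 42.2%, and the medians were 68.9% and 31.7% against 19.4% and 18.6%. In the 7 genes under 5 kb the median was 100% in every library, and none was lower. Within its length class the median proteasome gene stood at the 72.8 and 62.0 percentile for gene body coverage in the Veh libraries and at the 59.9 and 64.4 percentile in the D11-8 libraries. Among genes with at least 25% of the body covered in both Veh libraries, 20 of 28 proteasome genes (71.4%) and 1840 of 3391 others (54.3%) were lower with D11-8. At a Veh coverage of at least 50% the shares were 55.6% of 18 and 48.6% of 2247.

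**Figure D2:**
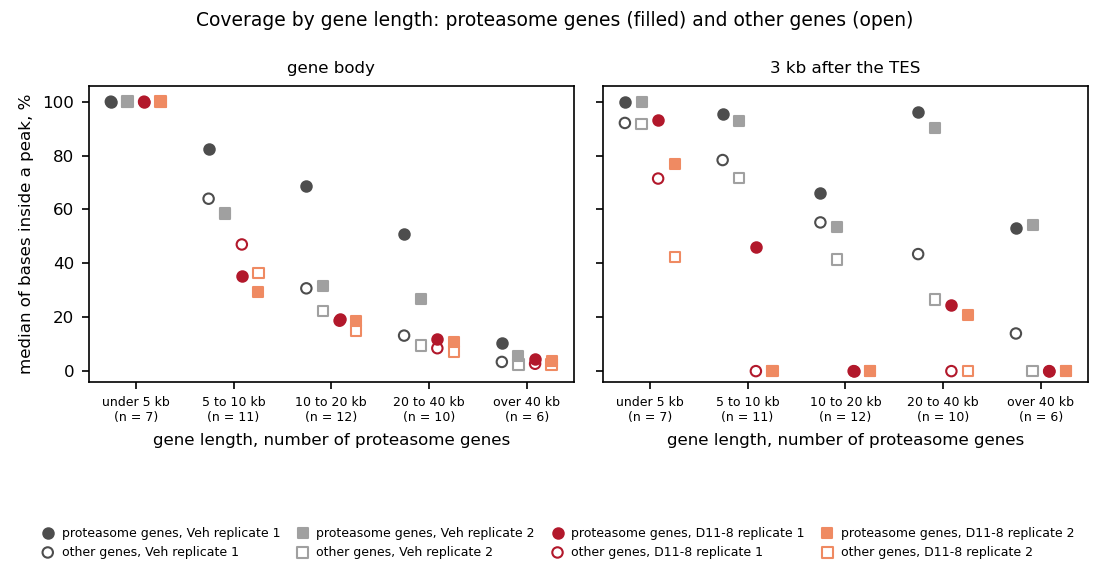
Median percent of bases inside a peak (y axis) by class of gene length (x axis) in the gene body (left) and in the 3 kb after the TES (right), with 1 point per library for proteasome genes (filled) and other genes (open). In the 20 to 40 kb class the filled Veh points of the gene body stand at 51.0% and 26.8%, above the open ones at 13.2% and 9.52%, whereas the D11-8 points of both sets lie between 7.31% and 11.9%.

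Along the genes, coverage with D11-8 was higher near the start and lower farther on. In the 22 proteasome genes of at least 15 kb, 69.4% ± 4.83 (SD, n = 2) of bases 1 to 2 kb after the TSS were covered with Veh and 96.2% ± 2.98 with D11-8. From 2 to 3 kb the values were 40.2% ± 1.55 and 72.2% ± 3.69. From 3 to 5 kb the order turned, with 31.3% ± 5.84 with Veh and 13.4% ± 3.66 with D11-8. From 5 to 10 kb they were 26.4% ± 9.84 and 2.11% ± 0.304. The 6381 other genes of that length had 13.4% ± 4.39 and 3.26% ± 1.08 there. From 3 to 5 kb the other genes had 14.8% ± 1.98 and 11.2% ± 3.50, and there the groups overlapped.

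**Figure D3:**
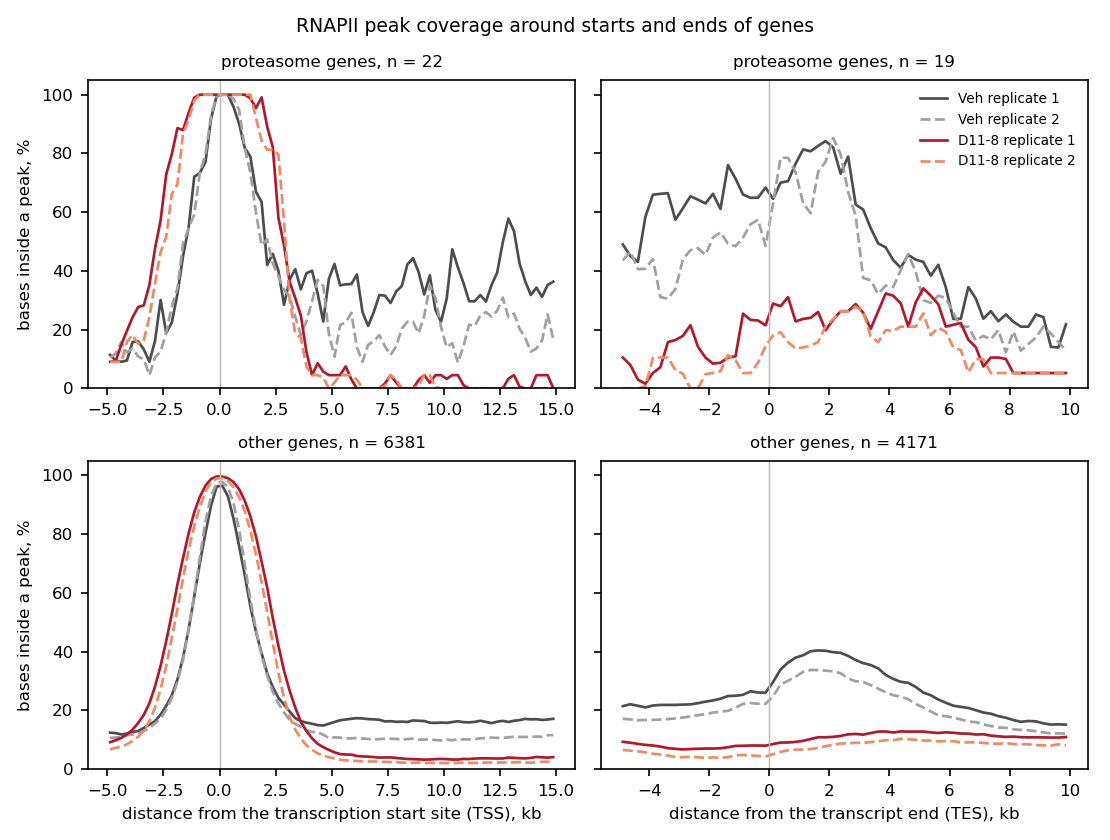
Percent of bases inside an RNAPII peak in 250 bp steps (y axis) by distance in kb (x axis) from the TSS (left, genes of at least 15 kb) and the TES (right, genes of 5 kb or more that lie 3 kb or more from others), for proteasome genes (top) and other genes (bottom), 1 line per library. With D11-8 both sets have a broader hump at the TSS and little coverage beyond 5 kb, and the hump after the TES that averages 71.9% in the first kb in the Veh libraries of the 19 proteasome genes averages 22.2% in the first kb with D11-8.

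Restricting the comparison to genes at least 3 kb from any other protein-coding gene left 20 of the 46 proteasome genes. Gene body coverage was lower in both D11-8 libraries at 15 of these 20, against 36.1% of 4495 genes. Coverage after the TES was lower at 15 of 20 as well, against 43.0%.

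After the TES, where RNAPII continues past the polyadenylation site before it is released, the proteasome genes had more coverage than other genes with Veh, and most had less with D11-8. The median coverage of the 3 kb after the TES was 89.2% and 84.7% with Veh and 14.1% and 0% with D11-8, against 44.9%, 30.4%, 0% and 0% for the other genes. It was lower in both D11-8 libraries at 29 of the 46 genes (63.0%), against a background of 41.2%, higher at 2 (4.35%), against 2.82%, and the groups overlapped at the other 15. The background includes many genes with no such coverage in either Veh library: 28.4% of the other genes and 4 of the 46 proteasome genes had 0% in both. Among genes with coverage after the TES in both Veh libraries, 29 of 39 proteasome genes (74.4%) and 69.2% of 5702 others were lower with D11-8, so the shares were close. At least 1 D11-8 library kept some coverage in 29 of the 46, since 17 proteasome genes and 66.2% of the others had 0% in both.

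**Figure D4:**
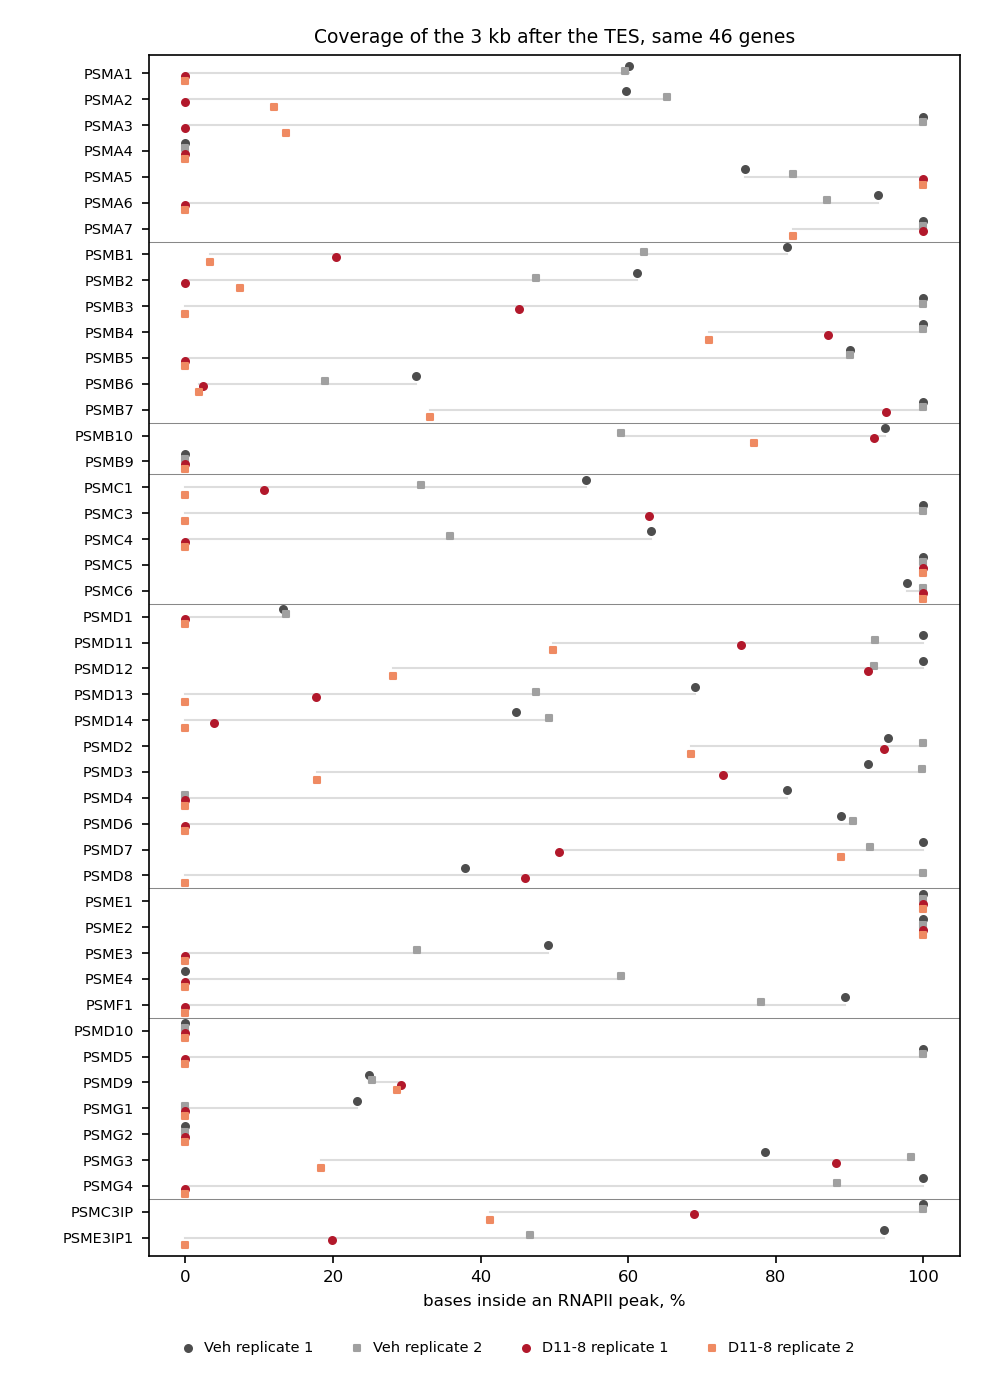
Percent of the 3 kb after the TES inside an RNAPII peak (x axis) for the same 46 genes (y axis, in the same order), 1 point per library. All 7 beta ring genes have both D11-8 points to the left of both Veh points, and PSMA5 and PSMD9 have them to the right.

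All 7 genes of the standard beta ring had lower coverage after the TES, against 69.2% of other genes with such coverage in both Veh libraries. At PSMB5 it was 90.1% and 90.0% with Veh and 0% in both D11-8 libraries. PSMB6 had 31.3% and 18.9% against 2.43% and 1.90%, although its gene body coverage was higher with D11-8. PSMB7 had 100% in both Veh libraries against 94.9% and 33.1%, so that only D11-8 replicate 2 was far from the Veh libraries. The largest difference was at the chaperone PSMD5, with 100% in both Veh libraries and 0% in both D11-8 libraries. PSMG4 had 100% and 88.3% against 0% in both, PSMA3 100% in both against 0% and 13.6%, and PSMA6, another alpha subunit, 93.9% and 87.0% against 0% in both.

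At the ATPases, PSMC4 had 63.1% and 35.9% with Veh and 0% in both D11-8 libraries, PSMC1 54.3% and 31.9% against 10.6% and 0%, and PSMC3 100% in both against 62.9% and 0%. PSMC6 had between 97.8% and 100% in all 4 libraries, and a start of the gene STYX lies in its window. At PSMA5 the coverage was higher with D11-8, 75.8% and 82.4% against 100% in both, and a start of SORT1 lies in that window. PSMD9, with 24.9% and 25.2% against 29.2% and 28.7%, has a start of CFAP251 there. Of the 8 proteasome genes with another protein-coding start in the window, 1 was lower, and the share among other such genes was not counted. Of the 38 without one, 28 were lower (73.7%) and none was higher, against 44.2% lower among 8338 other genes without one. Those 8338 include genes with no coverage after the TES in either Veh library.

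The promoter over gene body fold is the log2 difference between the highest fold enrichment of the promoter peak and that of a separate peak in the gene body, in 1 library. Only 15 proteasome genes had both kinds of peak in all 4 libraries, since 23 and 24 of the 46 had no separate body peak in the D11-8 libraries. The value was higher in both D11-8 libraries at 13 of these 15 (86.7%), against a background of 70.2% of 1752 genes. PSMA3 changed most, from 0.13 and -0.77 with Veh to 3.21 and 3.21 with D11-8. PSMG4 had -1.41 and 0.69 against 3.09 and 2.55, and PSMD5 0.31 and 0.24 against 3.55 and 3.26. PSMD12 had -0.91 and 0.47 against 3.22 and 2.48, and PSMB3 0.65 and 1.45 against 3.53 and 3.63. The peak at PSMB3 also holds the start of PCGF2, and its strongest summit lay upstream of the PSMB3 TSS, at -17311 and -3504 bp with Veh and -2926 and -4138 bp with D11-8. With each summit taken singly, PSMB3 had 0.33 and 1.00 against 0.90 and 1.58, PSMD12 had -0.54 and 0.87 against 2.72 and 0.85, and the groups overlapped at both. On that scale 20 of 33 proteasome genes were higher, against 60.4% of all genes. At PSMA3, PSMD12 and PSMG4 the strongest body peak exceeded the promoter peak in a Veh library, and in no D11-8 library. PSMA5 and PSMC6 overlapped, both with a neighbouring start after the TES.

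Promoter peaks of most proteasome genes were wider with D11-8, to about the same degree as those of all genes. Their median width was 4135 and 3515 bp in the Veh libraries and 5175 and 5118 bp in the D11-8 libraries. By limma on log2 widths of 9736 genes (Benjamini-Hochberg adjusted p of at most 0.05), 12 of 46 were wider (26.1%), against a background of 20.2%, and 2 were narrower (4.35%), against 2.73%. Over all genes the median change was 0.52 on the log2 scale and over the 46 genes it was 0.56. With each library centred on its median width, 1 proteasome gene was wider than the general shift and 5 were narrower, against 1.81% and 4.41% of all genes. With the replicate number as a block, limma called 0 of 46 wider and 0 narrower (18 and 3 at an unadjusted p under 0.05), and 0 of all 9736 genes. Without either D11-8 library it also called 0 of all genes, so those fits, in which the lone D11-8 library is assumed to vary like the Veh libraries, say nothing particular about the proteasome genes. Without Veh replicate 2 it called 16 wider and 6 narrower, against 30.2% and 4.42% of all genes, and merging peaks within 1 kb left 3 wider and 4 narrower, against 3.60% and 3.78%.

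**Figure D5:**
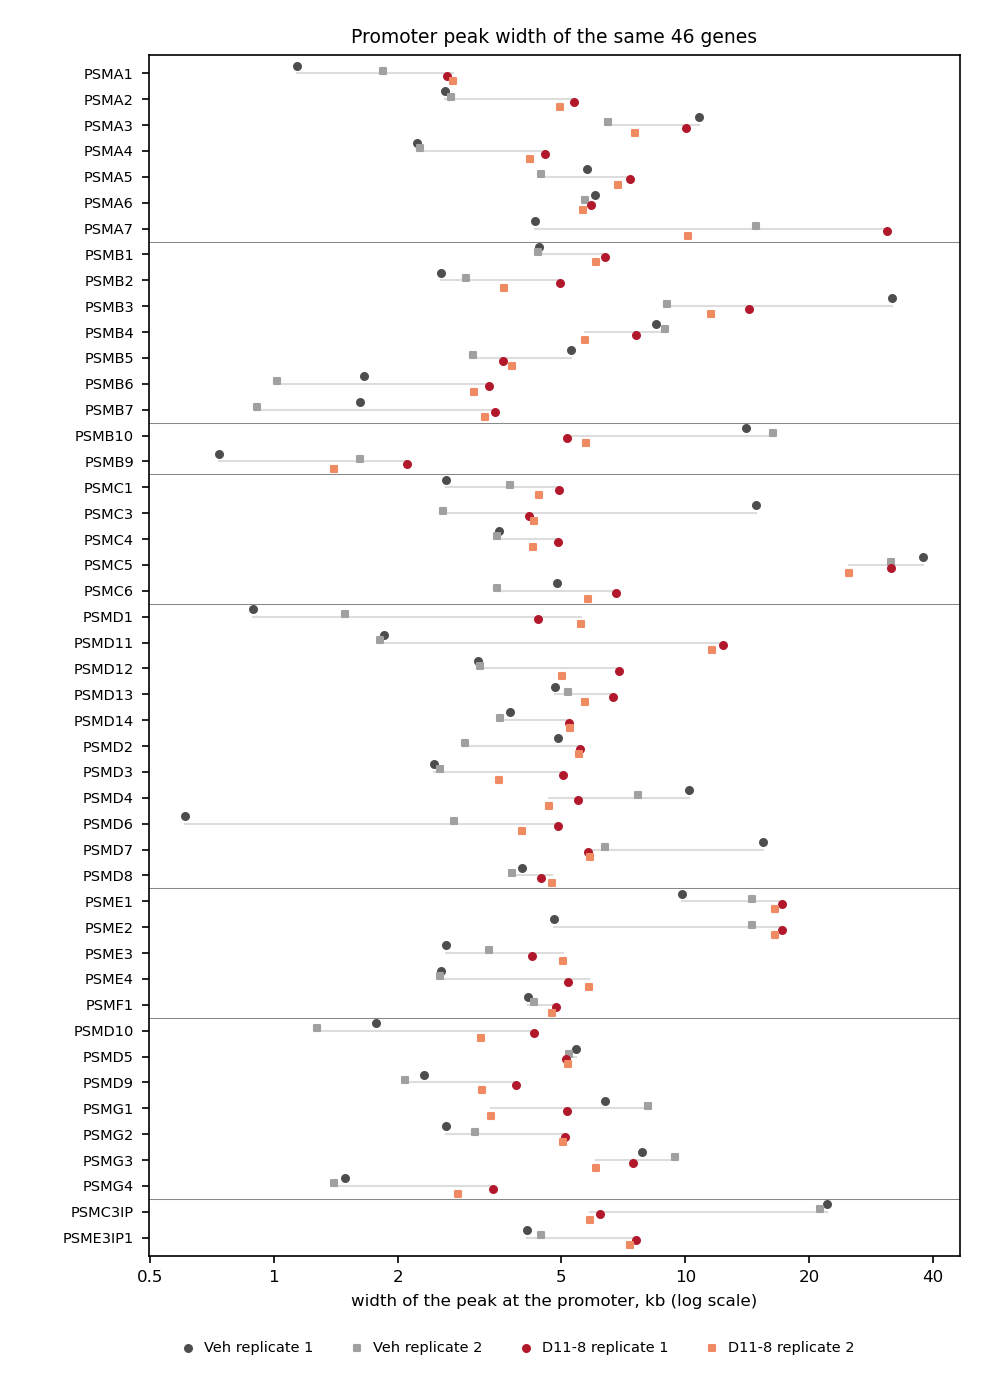
Width in kb of the peak at the promoter (x axis, log scale) for the same 46 genes (y axis, in the same order), 1 point per library. PSMD11 and PSMD1 show the largest widening with D11-8, and PSMB10 and PSMC3IP the largest narrowing.

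PSMD11, a non-ATPase subunit that helps hold the cap together (chr17:30771528-30810337), stood apart from the general widening. Its promoter peak was 1857 and 1813 bp wide with Veh and 12340 and 11642 bp wide with D11-8, a 6.53-fold change (log2 2.71, SE 0.16, limma adjusted p = 0.0243, and 0.0663 with the replicate block). Relative to the library medians the change was 2.11 (SE 0.15), and PSMD11 was the gene called wider on that scale. The added width was mostly upstream of the gene: the peak reached 377 and 392 bp upstream of the TSS with Veh and 9718 and 8362 bp with D11-8. The peak did not hold the start used here for any other protein-coding gene, and starts of other isoforms were not checked. Downstream it reached 1479 and 1420 bp against 2621 and 3279 bp.

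PSMD1, the largest cap scaffold and the longest gene of the set at 114.7 kb, had a peak of 888 and 1489 bp with Veh and 4377 and 5567 bp with D11-8 (log2 change 2.10, SE 0.32, limma adjusted p = 0.0296, and 0.0663 with the replicate block). PSMB7 had 1617 and 908 bp against 3451 and 3269 bp, and PSMB6 1656 and 1016 bp against 3338 and 3067 bp. PSMB10 was narrower, with 14044 and 16339 bp against 5161 and 5733 bp (log2 change -1.48, SE 0.19, limma adjusted p = 0.0280, and 0.0663 with the replicate block), and is the shortest gene with a promoter peak, at 2.35 kb. The Veh peak of PSMB10 also held the start of LCAT, and the D11-8 peak did not. PSMC3IP, which shares only the symbol, had 22143 and 21253 bp against 6211 and 5879 bp, and its Veh peak held the starts of COASY and MLX. The activator genes PSME1 and PSME2 share a peak in 3 of 4 libraries, so their widths are the same value there and are not separate evidence.

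The downstream edge of the promoter peak gathered in a narrow range with D11-8. It lay 1.5 to 4 kb after the TSS in both D11-8 libraries at 37 of the 46 genes (80.4%) and in both Veh libraries at 16 (34.8%), against 58.8% of the other genes with D11-8 and 26.5% with Veh. That window was not among the planned measures and does not come from the study, so these shares are a description only. The edge was farther from the TSS in both D11-8 libraries at 30 of 46 (65.2%), against a background of 59.2%. The median edge of the 46 genes was at 1992 and 1873 bp with Veh and at 2705 and 2849 bp with D11-8.

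The height of the promoter peaks was compared only relative to other promoters in the same library, since the fold enrichment of most genes was larger with D11-8. The median fold enrichment of the 46 promoters was 8.20 and 8.47 with Veh and 28.2 and 21.3 with D11-8, against 6.09, 8.39, 26.6 and 17.4 for the other genes. On the log2 scale, centred on the library median, 1 of 46 was higher with D11-8 (2.17%), against a background of 0.637%, and 1 was lower (2.17%), against 5.33%. Without centring 34 of 46 were higher and 0 lower, against 64.2% and 0.103% of all genes. The higher one was PSMD11, with fold enrichments of 3.61 and 4.32 against 33.5 and 23.9 (relative log2 change 1.25, SE 0.37, limma adjusted p = 0.0419). The lower one was PSMG1, with 9.80 and 16.8 against 14.2 and 15.2 (relative log2 change -1.40, SE 0.37, limma adjusted p = 0.0246). The fold enrichments of PSMG1 as they stand overlapped between the groups. When either D11-8 library was left out, the lone one had to be assumed to vary like the Veh libraries. In those fits limma did not call PSMD11 higher, and the fits are not read as a result about the proteasome genes. Without Veh replicate 2 it called 4 higher and 5 lower, against 3.75% and 12.9% of all genes.

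The other genes of the pathway were measured in the same way. Of 30 genes for further subunits, regulators, ubiquitin shuttles and ubiquitin itself, 29 had a promoter peak in all 4 libraries. By limma 10 of these 29 were wider and 1 narrower, against 20.2% and 2.73% of all genes. Gene body coverage was lower at 15 and higher at 5, against 36.8% and 25.7%, and coverage after the TES was lower at 17 and higher at none, against 41.2% and 2.82%. NFE2L1, the gene of the factor that binds the CNC-bZIP element, had 81.6% and 87.1% of its body covered with Veh and 68.3% and 32.2% with D11-8, and its 3 kb after the TES were covered for 100% in both Veh libraries and 0% in both D11-8 libraries. DDI2, the protease that activates that factor, had 25.7% and 16.5% of its body covered against 4.79% and 4.65%. POMP, the core assembly chaperone, had 47.7% and 36.6% against 21.4% and 17.0%. NFE2L2, the gene of the related factor NRF2, had a promoter peak of 2896 and 6370 bp with Veh and 49283 and 29240 bp with D11-8 (log2 change 3.14, SE 0.48, limma adjusted p = 0.0296, and 0.0663 with the replicate block). Its body was covered for 85.8% and 74.3% with Veh and for 99.5% and 99.0% with D11-8.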

How the data were processed

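RNAPII ChIP-seq libraries from MDA-MB-453 cells, 2 with vehicle and 2 with D11-8, were analysed, and the 4 input libraries were not analysed here. The authors mapped the reads to GRCh37 (Bowtie 2) and ran MACS2 separately on each library, and other versions are not given in the sources used here. The deposited fold enrichment is a ratio of ChIP signal over local background, the deposited q-value is on the −log10 scale (the smallest was 2.00), and region lengths were deposited in bp. Summits of 1 region were joined into 1 peak. A library with fewer called peaks can cover fewer bases, whatever the cause. Each library had at least 60000000 paired-end reads per the labels, but read counts were not used here, so the mapped depth behind a value and its precision are unknown.

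Each gene was represented by its longest spliced protein-coding transcript in GENCODE release 44, with the longest by genomic span as an added alternative. The promoter was the TSS ± 300 bp, and gene bodies and the 3 kb after the TES were scored by covered bases in genes of at least 1 kb with a promoter peak in all 4 libraries. A gene was called lower or higher when the groups did not overlap. Widths and centred log2 folds were fitted over all genes with limma 3.58.1 (R 4.3.3), on widths as they are. Replicates were consecutive passages, so an equal replicate number may mark 1 passage, and blocked values are given beside the width calls. Gene by gene, libraries of equal number did not deviate together (correlations of -0.03 for width, -0.04 for relative fold and -0.06 for gene body coverage). Such a correlation cannot show a shift of a whole library. Replicate 1 had more peaks than replicate 2 in both treatments (78306 against 57493 with Veh, 25897 against 21842 with D11-8). The members, lists and tests were chosen with earlier results of these data known. Named genes were the proteolytic subunits and their inducible or tissue-restricted counterparts, PSMA7, PSMA8, the ATPases, genes lacking a promoter peak, the 5 with the largest difference in each direction and measure, and the longest and shortest, and PSMA7's divergent partner, the other neighbours and the pathway genes were named after values were seen. Measures were tested on simulated data of 9736 genes, 200 of them with a planted width change. There limma recovered 74.0% of the 200 at a log2 change of 1 and 100% at 2, with 5 and 6 false calls. The simulated widths had the same spread at every gene and no general shift, unlike the real widths. In the real fit PSMD6, with a log2 change of 1.78 (SE 0.74), was not called, so recovery there can be lower. Python 3.11.15, numpy 2.4.6, pandas 2.3.3 and matplotlib 3.10.9 were used. Alternatives covered the q-value limit, equal peak numbers, merged peaks, windows, isoforms, centring, left-out libraries and a replicate block.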

Additional observations from a re-analysis of the deposited data

How the results depend on the processing

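The counts in this section show how each result moved with the setting. On their own they do not show whether the proteasome genes differed from all genes under it. Of the 46 proteasome genes with a promoter peak, all 46 were also found without any 1 library. Leaving out 1 library at a time gave 0 to 16 wider and 0 to 6 narrower promoter peaks (12 and 2 with all libraries), 0 to 4 higher and 0 to 5 lower relative folds (1 and 1), and 7 to 10 genes with higher gene body coverage (6). A minimum −log10 q-value of 5 left 3 of 5 genes with a higher promoter over gene body fold (13 of 15 otherwise). Equal numbers of peaks gave 8 of 10, and gene body coverage was then lower at 12 and higher at 12. Merging peaks within 1 kb gave 3 wider, 4 narrower, 2 relative folds higher, 5 of 7 for the promoter over gene body fold and a difference of medians after the TES of -89.4 percentage points (-79.9 otherwise). Taking summits singly gave 20 of 33 for the promoter over gene body fold. Centring widths on the library median gave 1 wider and 5 narrower (176 and 429 over all genes), and folds without centring gave 34 higher and 0 lower. A gene body from 2 kb left 2 higher. Genes at least 3 kb apart gave 15 lower and 2 higher in the gene body, and 15 lower, 1 higher and a difference of medians of -88.8 after the TES. A window of 10 kb after the TES gave 4 higher and -25.2. With a replicate block limma called 0 of 46 wider and 0 narrower (18 and 3 at an unadjusted p under 0.05) and 2 relative folds higher. It left the lower relative fold at 1, and neither the labels nor the methods say outright that equal numbers pair the libraries. Alternatives chosen after seeing the data gave 2 relative folds higher and 0 lower with the strongest summit within 300 bp of the TSS, 0 higher after the TES where no other start lies there, and 1 narrower without the symbol matches. Single gene differences between treatments turned, in percentage points, in gene body coverage to 0.0052 at PSMD11 under the q-value limit, to 2.50 at PSMA5, 2.59 at PSME3IP1, 3.81 at PSMD11 and 6.92 at PSMB1 with equal peak numbers and to -0.13 at PSMD1 from 2 kb, and after the TES to 2.23 at PSMD11 and 26.1 at PSMD12 over 10 kb. Of 736 comparisons of 63 gene values with their alternatives, 8 turned and 118 moved by more than the spread between replicates. The causes were not tested. Peak calls without the mapped read depth cannot show whether an uncovered base had no RNAPII or too few reads.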
